A study of Homo sapiens with 26 samples.

Results

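The 49 genes described here encode proteins that license and fire replication origins, build the replication fork, supply nucleotides and histones, switch on transcription at the entry to S phase, or repair DNA at the fork. They were taken from a list of DNA replication and G1/S genes, and 49 of 49 listed genes were measured among the 19775 genes on the arrays. By role, 6 encode subunits of the MCM helicase, 9 act in origin licensing and firing, 14 act at the fork, 5 make nucleotides or remove uracil, 7 supply histones or act on chromatin, 2 are transcription factors and 6 act in repair or the S phase checkpoint. Each gene was represented by the brightest probe set assigned to it alone.

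The study asked how NOTCH3 signalling shapes gene expression in MDA-MB-468 cells, an established line from a human basal-like breast cancer that lacks the oestrogen and progesterone receptors and HER2. It held 26 whole-transcriptome Affymetrix arrays, 8 from an antagonism experiment and 18 from an agonism experiment. In the antagonism experiment, cells were grown for 40 h and then treated for 24 h with a control IgG (anti-gD, 10 µg/ml) and 0.05% DMSO (3 arrays), with that IgG and 5 µM DAPT (3 arrays), or with the NOTCH3-blocking antibody A4 (10 µg/ml) and 0.05% DMSO (2 arrays). DAPT inhibits gamma-secretase, the protease that releases the active part of every Notch receptor, whereas A4 is directed at NOTCH3 alone.

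In the agonism experiment the DMSO group (0.05%) never received DAPT, and the 5 other groups were all kept in 5 µM DAPT for 16 h first. Every plate then had 2 h in plain medium. The DAPT group was returned to 5 µM DAPT. The remaining groups stayed free of it and received the same kind of control IgG (20 µg/ml), the agonist NOTCH3 antibody A13 (20 µg/ml), Fc beads as a control, or JAG1 beads, which carry the Notch ligand JAG1 fused to Fc. DAPT or DMSO was replenished at 22 h in its own groups, harvest was at 24 h, and each of the 6 groups had 3 arrays. Cells were plated more densely than in the antagonism experiment. Levels were not compared between the experiments, because their intensity distributions differed.

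Before S phase, ORC, CDC6 and CDT1 load the MCM helicase onto origins, and in S phase CDC45 and the GINS complex join it to form the active helicase that DNA polymerases and the clamp PCNA follow. Most of these genes are transcribed in a wave at the G1 to S transition under the E2F factors, which RB1 restrains and which cyclin D and cyclin E kinases release. Notch signalling is known to feed into this wave in several tumours through MYC and cyclin D1.

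All 49 genes had mean levels at or above the 53.3rd percentile of all genes in the antagonism experiment and the 49.8th in the agonism experiment. The epithelial gene EPCAM lay at the 99.5th and 99.3rd percentile and EGFR, which this line is known to amplify, at the 99.7th and 99.4th, while the leukocyte marker PTPRC (11.8th and 7.49th percentile) and the fibroblast marker LUM (2.31st and 2.15th) were low. RB1, which this line is known to lack, lay at the 19.7th and 9.73rd percentile. Of 5 genes planned as a check of treatment, values are given for MYC alone. Another, NOTCH3, passed with DAPT and with A4 in the antagonism experiment. These calls were lost in 7 of 13 and in 6 of 12 alternative fits. MYC is a direct Notch target. It fell by 1.34 ± 0.10 (log2 change ± SE) with DAPT and by 1.15 ± 0.11 with A4 in the antagonism experiment, fell by 1.21 ± 0.07 with DAPT in the agonism experiment, and rose by 1.33 ± 0.07 with A13 over IgG and by 0.80 ± 0.07 with JAG1 beads over Fc beads. Whether replicate arrays stand for separate cultures is not stated in the labels, and the agonism protocol writes of the DMSO plate in the singular. How far these samples vary, which may be technical, is then all that the p-values measure. In bulk RNA, fewer cells in S phase and less of a transcript per cell cannot be told apart.

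The antagonism experiment asked what loss of Notch or NOTCH3 activity does to growing cells. Nearly all of the genes were lower after both treatments, each by a small amount. Both comparisons use the same 3 control arrays, so the 2 sets of counts are not separate support. With DAPT, 47 of 49 had a log2 change below 0, compared with 51.3% of all genes, and the median was -0.22 (all genes -0.00399). With A4, 49 of 49 were below 0 (all genes 48.7%), with a median of -0.23. Every DAPT array lay below every control array for 33 of the 49 genes (9.15% of all genes). The same held for 38 genes with A4, which had 2 arrays (12.3% of all genes). With limma's test adjusted over all genes, however, 1 member passed with DAPT, where 0.152% of all genes passed as lower and 0.202% as higher. With A4, 0 members passed, where 0.0556% of all genes passed as lower and 0.0455% as higher. At an unadjusted p under 0.05, 29 members were lower with DAPT (6.74% of all genes) and 31 with A4 (4.85%), and 0 were higher with either (6.27% and 4.43% of all genes).

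The member that fell with DAPT was MCM10, which anchors polymerase alpha to the helicase. Its log2 intensity was 10.04, 10.04 and 10.10 in the control arrays, 9.62, 9.55 and 9.38 in the DAPT arrays and 9.66 and 9.49 in the A4 arrays. The controls lay above all treated arrays. The fall with DAPT was 0.55 ± 0.08 (adjusted p = 0.0378, limma), and the change with A4 was -0.49 ± 0.09 (adjusted p = 0.113). CDC45, the helicase cofactor, had control levels of 10.35, 10.40 and 10.53, DAPT levels of 10.07, 10.02 and 9.98, and A4 levels of 10.16 and 10.09. Its groups did not overlap either, yet its change of -0.40 ± 0.07 with DAPT did not pass (adjusted p = 0.06). UHRF1, which guides DNA methylation to replicated chromatin, measured 11.54, 11.56 and 11.76 in controls against 11.16, 10.94 and 11.23 with DAPT, a change of -0.51 ± 0.09 (adjusted p = 0.0706). DSCC1, part of an alternative clamp loader, changed by -0.43 ± 0.08 with DAPT (adjusted p = 0.0657) and by -0.48 ± 0.09 with A4 (adjusted p = 0.112). The smallest adjusted p with A4 belonged to the nuclease gene EXO1, at 9.87, 9.89 and 10.02 in controls and 9.39 and 9.47 with A4, a change of -0.49 ± 0.08 (adjusted p = 0.076).

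Across roles the medians with DAPT ran from -0.16 for the 6 MCM subunits to -0.31 for the 6 repair and checkpoint genes, and with A4 from -0.15 for the 2 E2F genes to -0.33 for the repair and checkpoint genes. RFC5, a clamp loader subunit, and MCM2 were the 2 genes not below 0 with DAPT, at 0.19 ± 0.10 and 0.08 ± 0.09. A4 and DAPT did not separate: 0 of 49 passed between them, as did 0.00% of all genes in either direction, with a median difference of -0.02. At an unadjusted p under 0.05, 1 member was higher with A4 and 3 lower, where 4.65% of all genes were higher and 3.59% lower. The smallest adjusted p among members was 0.6. The control arrays differed among themselves. The median of the members, relative to the control mean, was -0.01 in control 1, -0.06 in control 2 and 0.08 in control 3, against -0.225, -0.25 and -0.215 in the DAPT arrays and -0.205 and -0.24 in the A4 arrays. Without control 2, 19 members passed with DAPT and 2 with A4. Over all genes, 1198 and 96 then passed, against 70 and 20 with every array. Without any other single array of the groups compared, 0 passed with either, and the number below 0 stayed between 46 and 49.

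**Figure D1:**
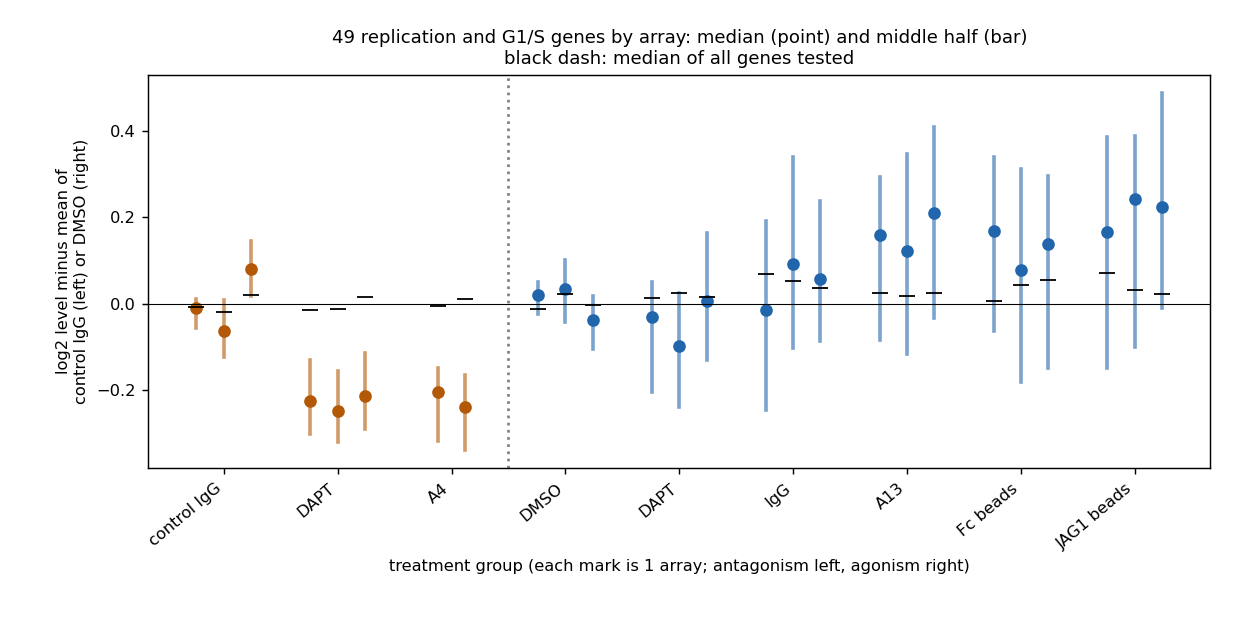
Median (point) and quartiles (bar) of the 49 genes in each array, as log2 level minus the mean of the control IgG arrays (antagonism, orange) or of the DMSO arrays (agonism, blue); black dashes give the median of all genes. All 5 treated arrays of the antagonism experiment lie between -0.205 and -0.25, below the 3 control arrays, while in the agonism experiment the medians run from -0.0992 in a DAPT array to 0.242 in a JAG1 bead array, and many bars span 0.

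In the agonism experiment the cells held in DAPT were compared with cells that never received it. Here the genes split. Of 49 members, 11 fell (8.31% of all genes fell) and 2 rose (12.4% of all genes rose), and the median was -0.06 (all genes 0.02). The genes that fell act at the fork or in origin firing, apart from RAD51AP1 of the repair genes. None of the nucleotide, histone or E2F genes passed in either direction.

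Of the GINS complex, which joins the active helicase, GINS2 measured 11.60, 11.38 and 11.68 in the DMSO arrays and 11.04, 11.00 and 10.97 in the DAPT arrays, and GINS1 measured 11.61, 11.36 and 11.57 against 11.13, 11.13 and 11.10. All DAPT arrays lay below all DMSO arrays for both. GINS2 fell by 0.55 ± 0.07 (adjusted p = 3.82e-05) and GINS1 by 0.39 ± 0.08 (adjusted p = 0.00132). POLE2, a subunit of the leading-strand polymerase epsilon, measured 10.84, 10.54 and 10.93 against 10.28, 10.25 and 10.31 and fell by 0.49 ± 0.08. The largest fall was that of RAD51AP1, which acts in DNA repair, at 11.21, 10.79 and 11.19 against 10.55, 10.31 and 10.35 (-0.66 ± 0.11). DMSO array 2 was the lowest DMSO array for each of these 4 genes, and still above every DAPT array. DSCC1 (-0.47 ± 0.08), the fork protection factor TIPIN (-0.45 ± 0.08), the primase PRIM1 (-0.40 ± 0.07), the clamp loader subunits RFC3 (-0.35 ± 0.06) and RFC4 (-0.33 ± 0.06), CDC45 (-0.29 ± 0.05) and MCM10 (-0.25 ± 0.06) fell as well, with adjusted p between 0.000408 and 0.00873.

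The 2 genes that rose were MCM2 and MCM3, subunits of the helicase ring. MCM2 measured 10.45, 10.71 and 10.31 in DMSO and 10.74, 10.71 and 10.94 in DAPT, so that the highest DMSO array nearly reached the lowest DAPT array, and it rose by 0.31 ± 0.09 (adjusted p = 0.018). MCM3 rose by 0.21 ± 0.06 (adjusted p = 0.0269). Both calls were lost without DMSO array 1, DMSO array 3 or DAPT array 3, and that of MCM3 also without DAPT array 2. With only the groups compared in the fit both were lost, and after median centring that of MCM3. All 6 MCM subunits had a change above 0, with a median of 0.20 (all genes 0.02), but only MCM2 and MCM3 passed. Of the 11 genes that fell, 9 kept their call in every alternative processing in which they could be computed, the exceptions being GINS2 and DSCC1. Both were read by a probe set of the _s_at kind, which can detect more than 1 transcript. From the other probe sets the change was 0.01 for each.

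The DAPT effects of the 2 experiments were then set side by side. The sign of the change was the same in both for 29 of 49 members and for 10470 of all 19775 genes. The change was below 0 in both for 27 members (25.1% of all genes). In the antagonism experiment 47 members were below 0, and in the agonism experiment 27. The count for both thus adds nothing to that of the agonism experiment. The changes of the 49 genes had a correlation of 0.39 across genes, with 0.27 over all genes. Genes are not independent replicates, and no array was shared. The difference between the DAPT effects was tested over all 26 arrays. It passed for 5 members, each lower in the antagonism experiment (3.27% of all genes passed as lower and 2.85% as higher), and 39 of 49 differences were below 0 (55.8% of all genes). The 5 were UHRF1 (-0.74 ± 0.16, adjusted p = 0.0109), the checkpoint mediator CLSPN (-0.54 ± 0.12, adjusted p = 0.0149), MCM4 (-0.44 ± 0.11, adjusted p = 0.0206), MCM3 (-0.35 ± 0.09, adjusted p = 0.0207) and the ribonucleotide reductase subunit RRM1 (-0.30 ± 0.09, adjusted p = 0.0486). UHRF1, for example, measured 10.29, 10.51 and 10.23 in DMSO and 10.47, 10.36 and 10.88 in DAPT in the agonism experiment, where the groups overlapped. The count was 1 without antagonism control 1, 12 without control 2, 16 without DMSO array 2, and 2 without DMSO array 1, DMSO array 3 or agonism DAPT array 3. In the same order, 481, 2828, 2398, 357, 326 and 373 of all genes passed, against 1211 with every array. With median centring the members split into 2 higher and 4 lower, and with quantile normalization into 2 higher and 6 lower. Over all genes, 1297 and 1683 then passed. Plating density, the control treatment and the time in DAPT differed with the experiment and cannot be told apart from it.

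**Figure D2:**
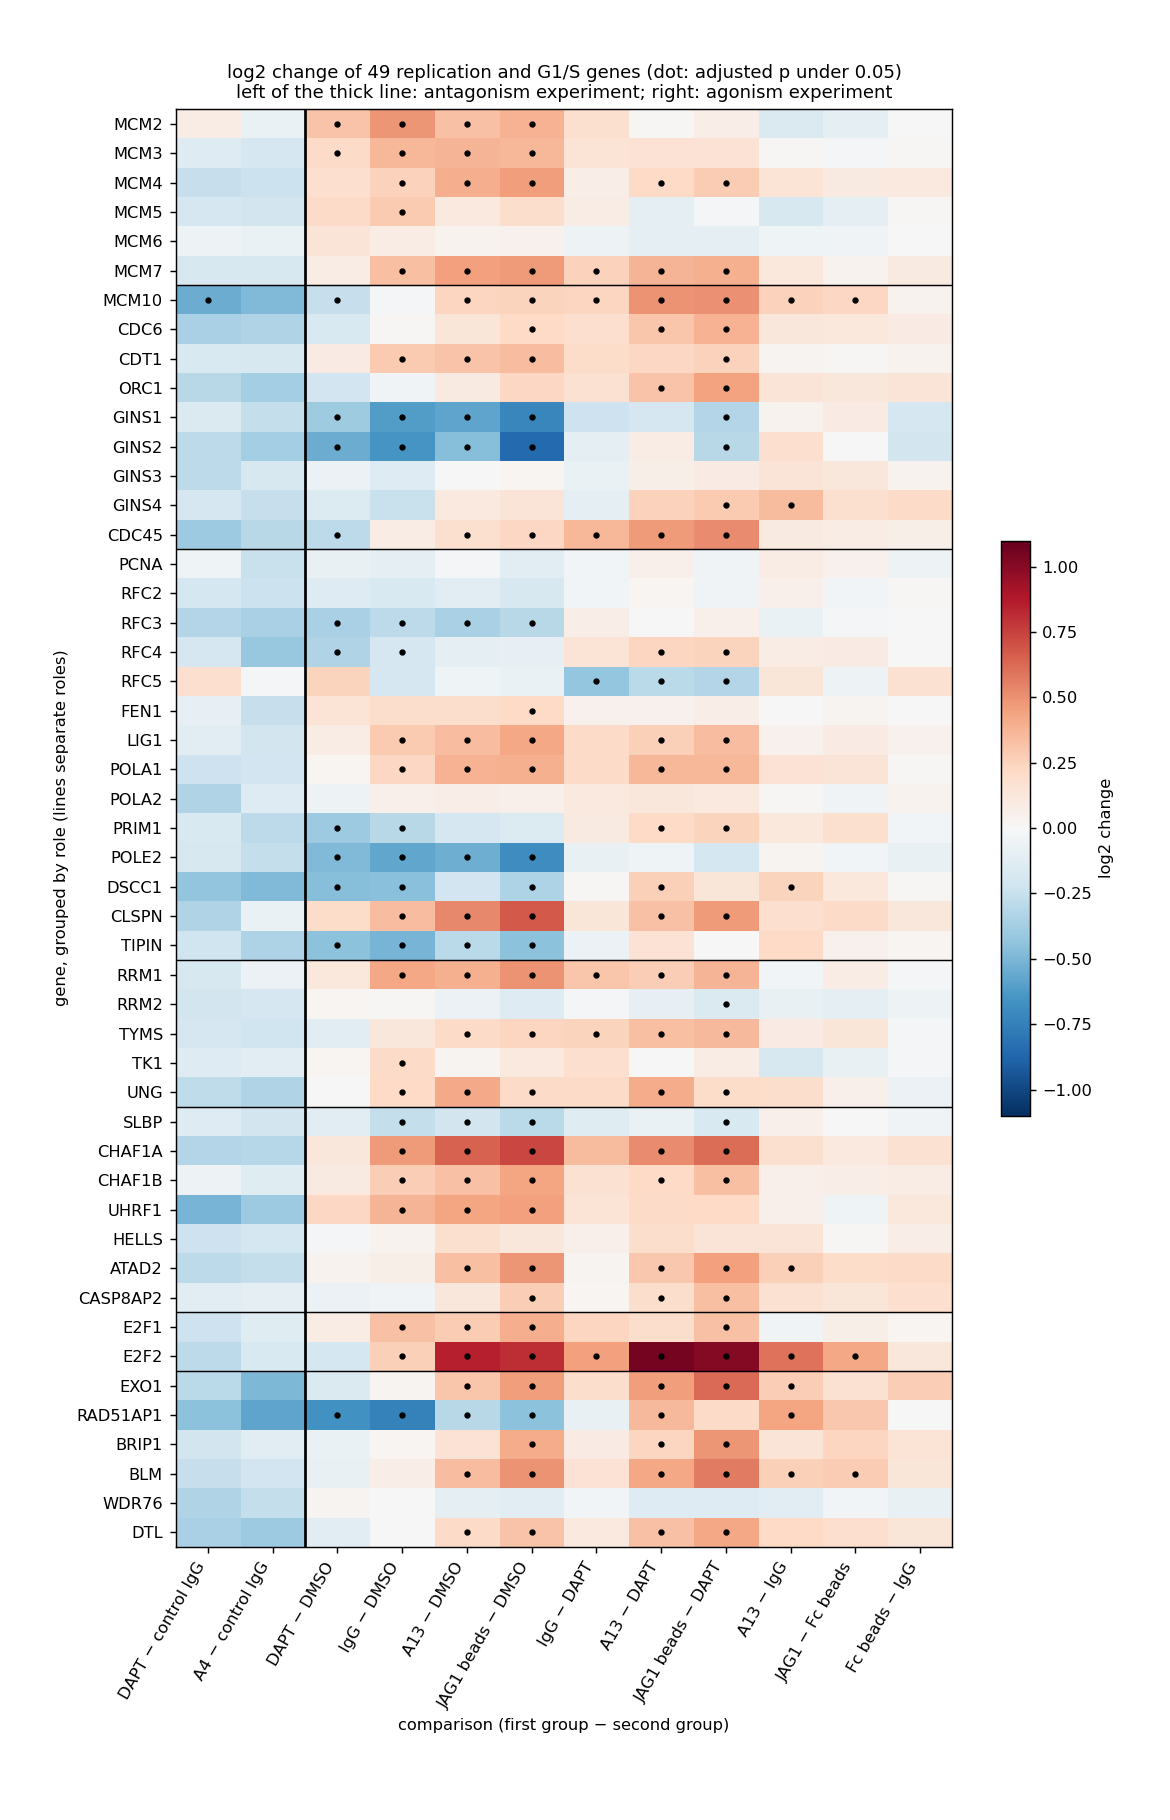
Log2 change of each of the 49 genes (vertical axis, grouped by role) in 12 comparisons (horizontal axis; first group minus second), with a dot where the adjusted p was under 0.05. The antagonism columns are almost wholly blue with 1 dot, whereas the columns against DMSO hold a blue block at GINS1 and GINS2 and red at the MCM subunits and CHAF1A; E2F2 is blue in DAPT against DMSO and red in the 3 others.

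Release from DAPT for 24 h in the presence of control IgG, compared with continued DAPT, gave 6 genes that rose (4.15% of all genes) and 1 that fell (5.62% of all genes). The median was 0.10 (all genes 0.03). E2F2, an activating E2F factor, measured 9.81, 9.95 and 9.98 in DAPT and 10.41, 10.46 and 10.23 with IgG and rose by 0.45 ± 0.07 (adjusted p = 0.000468). CDC45 went from 10.00, 10.06 and 10.04 to 10.41, 10.46 and 10.33 (0.37 ± 0.05, adjusted p = 0.000193), and RRM1 from 11.29, 11.26 and 11.32 to 11.58, 11.61 and 11.58 (0.30 ± 0.06, adjusted p = 0.005). The IgG arrays were above all DAPT arrays for these 3 genes, which kept their call in every alternative. MCM7 (0.25 ± 0.07), the thymidylate synthase gene TYMS (0.24 ± 0.05) and MCM10 (0.24 ± 0.06) also rose, with adjusted p between 0.00529 and 0.0293. The calls of MCM7 and MCM10 were each lost without any of 4 single arrays. RFC5 fell by 0.43 ± 0.10 (adjusted p = 0.0109), a call lost without IgG array 1 or 2. Its IgG arrays were uneven, at 10.70, 10.65 and 11.12. Without IgG array 2 the count over all members was 4, and 1101 of all genes passed, against 1932 with every array.

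A13 was set against control IgG to read the NOTCH3 agonist alone, both groups having been pretreated and washed alike. Of 49 members, 8 rose and 0 fell (5.68% of all genes rose and 9.02% fell), and the median was 0.12 (all genes -0.03). At an unadjusted p under 0.05, 14 were higher and 2 lower (10.3% and 15.4% of all genes). E2F2 measured 10.89, 10.95 and 11.04 with A13, above every IgG array, and rose by 0.60 ± 0.07, or 1.51-fold (adjusted p = 1.25e-05). RAD51AP1 went from 10.14, 10.38 and 10.45 with IgG to 10.78, 10.80 and 10.69 with A13, again without overlap, and rose by 0.43 ± 0.11 (adjusted p = 0.0116). The helicase gene BLM, which acts in recombination, measured 8.13, 8.15 and 8.11 against 8.32, 8.47 and 8.40 and rose by 0.27 ± 0.06 (adjusted p = 0.00561). MCM10 measured 9.37, 9.40 and 9.42 against 9.55, 9.61 and 9.79 and rose by 0.25 ± 0.06 (adjusted p = 0.0112). GINS4 (0.35 ± 0.10), EXO1 (0.27 ± 0.08), the chromatin ATPase ATAD2 (0.26 ± 0.08) and DSCC1 (0.25 ± 0.08) completed the set, with adjusted p between 0.0218 and 0.0445. The arrays of GINS4 overlapped. The DSCC1 call was lost without any single array, that of GINS4 or EXO1 without any of 4 single arrays, and that of ATAD2 without any of 3. The calls of E2F2 and BLM were kept in every alternative, and 3 members passed without IgG array 1 or without A13 array 3, and 5 without A13 array 1. In the same order, 2126, 2553 and 2127 of all genes passed, against 2908 with every array. MCM10 lost its call without A13 array 3, and RAD51AP1 without IgG array 1.

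JAG1 beads set against Fc beads gave 3 genes that rose and 0 that fell (2.97% of all genes rose and 5.14% fell), with a median of 0.08 (all genes 0.01). At an unadjusted p under 0.05, 11 were higher and 0 lower (9.45% and 11.5% of all genes). E2F2 measured 10.47, 10.55 and 10.46 with Fc beads and 10.91, 10.82 and 11.03 with JAG1 beads, and rose by 0.43 ± 0.07, or 1.35-fold (adjusted p = 0.000917). BLM went from 8.22, 8.23 and 8.35 to 8.47, 8.56 and 8.60 (0.28 ± 0.06, adjusted p = 0.00737), and MCM10 from 9.44, 9.40 and 9.46 to 9.56, 9.68 and 9.75 (0.23 ± 0.06, adjusted p = 0.036). The JAG1 arrays were above the Fc arrays for all 3. The call of MCM10 was lost without any 1 of the 6 arrays other than JAG1 array 1. The A13 and JAG1 comparisons use no array in common, and E2F2, BLM and MCM10 rose in both. The MCM10 call was lost in both without _s_at and _x_at probe sets and with only the groups compared in the fit. With JAG1 beads it was also lost with the mean of its probe sets, and that of BLM with only the groups compared. The difference between the JAG1 and A13 effects passed for 0 of 49 members (0.116% of all genes passed as higher and 0.0657% as lower), and 0 members had an unadjusted p under 0.05, where 4.06% of all genes were higher and 1.88% lower. The difference with the smallest p among members, that of GINS2, was -0.19 ± 0.10 (adjusted p = 0.886), and that of E2F2 was -0.17 ± 0.10. A p that misses the threshold does not show that the agonists acted alike. Fc beads against control IgG changed 0 members (1.64% of all genes rose and 0.440% fell). At an unadjusted p under 0.05, 4 members were higher and 2 lower, near the 8.63% and 6.00% of all genes.

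**Figure D3:**
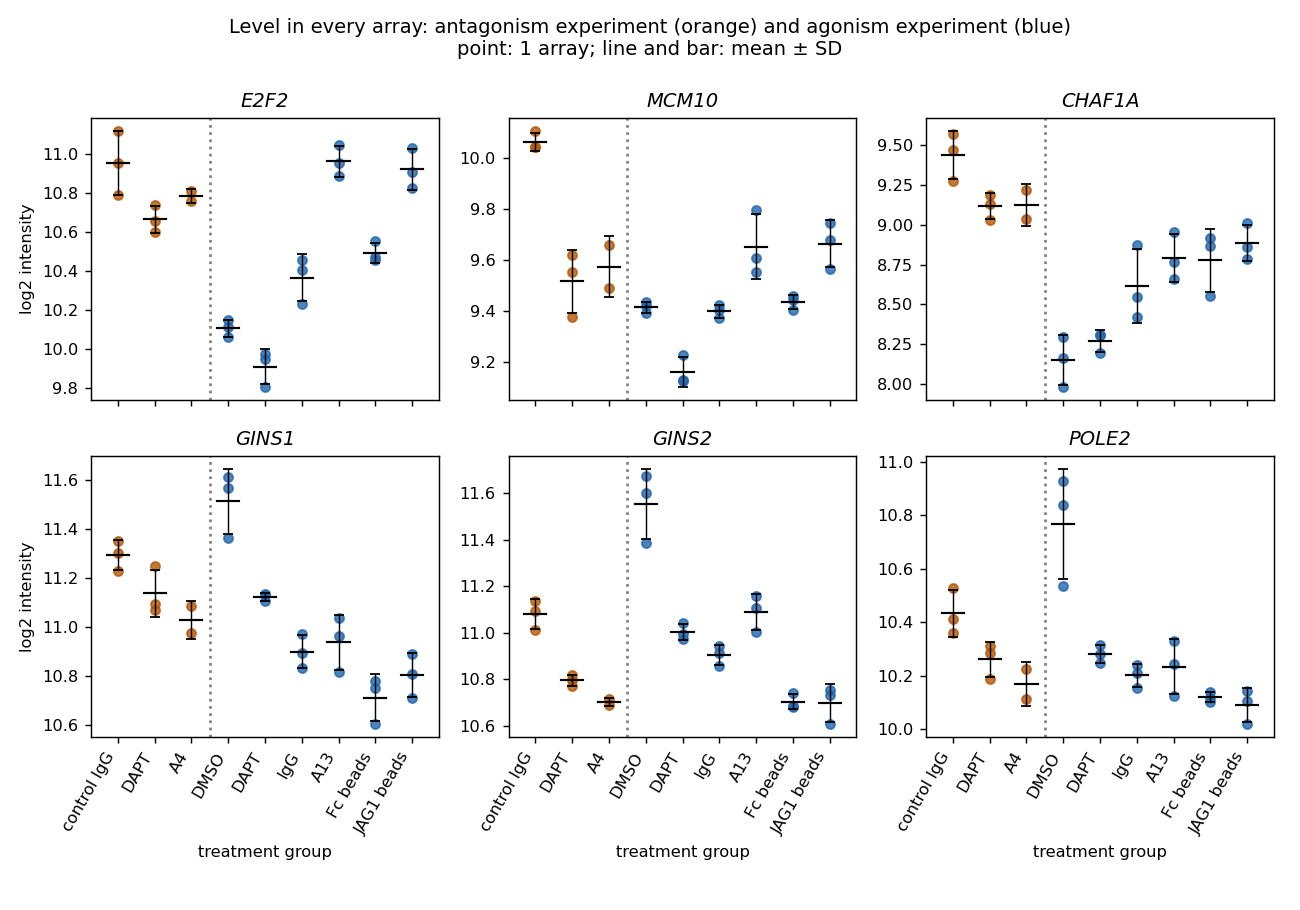
Log2 intensity (vertical axis) of 6 genes in every array (points), by treatment group, with the group mean and SD; orange is the antagonism experiment and blue the agonism experiment, whose levels are not comparable with each other. Within the agonism experiment, E2F2 is highest in the A13 and JAG1 bead arrays, all at or above 10.82, while GINS1, GINS2 and POLE2 are highest in the DMSO arrays.

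Set against cells kept in DAPT, which combines release and agonist, most members that passed rose. With A13, 25 of 49 rose and 1 fell (12.0% of all genes rose and 16.2% fell), and with JAG1 beads 26 rose and 5 fell (17.0% and 16.1% of all genes). The medians were 0.22 and 0.24, against 0.01 and 0.03 over all genes. These comparisons share the DAPT arrays with each other and with those above and are given side by side, not as separate support.

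E2F2 rose by 1.05 ± 0.07 with A13 and by 1.01 ± 0.07 with JAG1 beads, or 2.07-fold and 2.02-fold (adjusted p = 2.84e-09 and 4.61e-09). Each of its 3 probe sets rose in both. CHAF1A, a subunit of the chromatin assembly factor that deposits histones behind the fork, measured 8.19, 8.31 and 8.31 in DAPT, 8.66, 8.77 and 8.95 with A13 and 8.79, 8.86 and 9.01 with JAG1 beads. It rose by 0.52 ± 0.12 and 0.62 ± 0.12 (adjusted p = 0.00204 and 0.000389), with 3 of its 4 probe sets higher in both. Both CHAF1A calls were lost without _s_at and _x_at probe sets. MCM10, at 9.13, 9.12 and 9.23 in DAPT, rose by 0.49 ± 0.06 and 0.50 ± 0.06, and CDC45 by 0.47 ± 0.05 and 0.52 ± 0.05. EXO1 (0.46 ± 0.08 and 0.62 ± 0.08) and BLM (0.42 ± 0.06 and 0.57 ± 0.06) rose in both. The helicase gene BRIP1, which acts in crosslink repair, and CLSPN rose by 0.48 ± 0.08 and 0.47 ± 0.08 with JAG1 beads and by 0.23 ± 0.08 and 0.32 ± 0.08 with A13, where the BRIP1 call was lost without any of 3 single arrays and that of CLSPN without DAPT array 1. None of the arrays of these 8 genes overlapped between DAPT and either agonist. These genes were picked for their large changes, which makes such non-overlap likely, so it is not further support. The same holds for the passing genes described without overlap in the other agonism comparisons. The share of all genes without overlap is not given for them.

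Further genes, picked by role after their values were seen, came from licensing, the fork and nucleotide supply. CDC6, the loader of the MCM ring, rose by 0.30 ± 0.06 with A13 and 0.39 ± 0.06 with JAG1 beads, and ORC1, of the origin recognition complex, by 0.31 ± 0.10 and 0.44 ± 0.10. Of the MCM subunits, MCM7 rose by 0.37 ± 0.07 and 0.39 ± 0.07 and MCM4 by 0.22 ± 0.08 and 0.28 ± 0.08, while the other 4 did not pass. The catalytic subunit of polymerase alpha, POLA1, rose by 0.37 ± 0.07 in both. In nucleotide supply, TYMS rose by 0.33 ± 0.05 and 0.36 ± 0.05, RRM1 by 0.27 ± 0.06 and 0.37 ± 0.06, and UNG, which removes uracil from DNA, by 0.41 ± 0.07 and 0.20 ± 0.07. The call of MCM4 with A13 was lost without any single array of either group, and with JAG1 beads without JAG1 array 3. That of ORC1 with A13 was lost without any of 3 single arrays, and that of UNG with JAG1 beads without any of 5. PCNA, the clamp itself, measured 13.61, 13.56 and 13.55 in DAPT, 13.65, 13.66 and 13.58 with A13 and 13.52, 13.55 and 13.53 with JAG1 beads, and did not pass against either.

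A few genes went the other way. GINS1 (-0.32 ± 0.08), GINS2 (-0.31 ± 0.07), the histone mRNA binding protein gene SLBP (-0.17 ± 0.06) and RRM2, the small subunit of ribonucleotide reductase (-0.16 ± 0.06), fell with JAG1 beads. RFC5 fell with A13 (-0.29 ± 0.10, a call lost without any single array other than DAPT array 2) and JAG1 beads (-0.32 ± 0.10). With JAG1 beads the calls of SLBP, RRM2 and RFC5 were each lost without any of 4 single arrays. The 2 dimmer probe sets of RFC5 did not pass with either agonist, and both had changes above 0 with each agonist. In DAPT against DMSO these 2 probe sets fell by 0.28 and 0.31, while the brightest changed by 0.25 and did not pass. With each array left out and each other alternative, 14 of 26 calls with A13 and 20 of 31 with JAG1 beads were kept. E2F2, MCM10, CDC45, BLM, EXO1, MCM7, CDC6, TYMS, RRM1, POLA1, ATAD2, DTL and RFC4 were kept with both agonists.

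**Figure D4:**
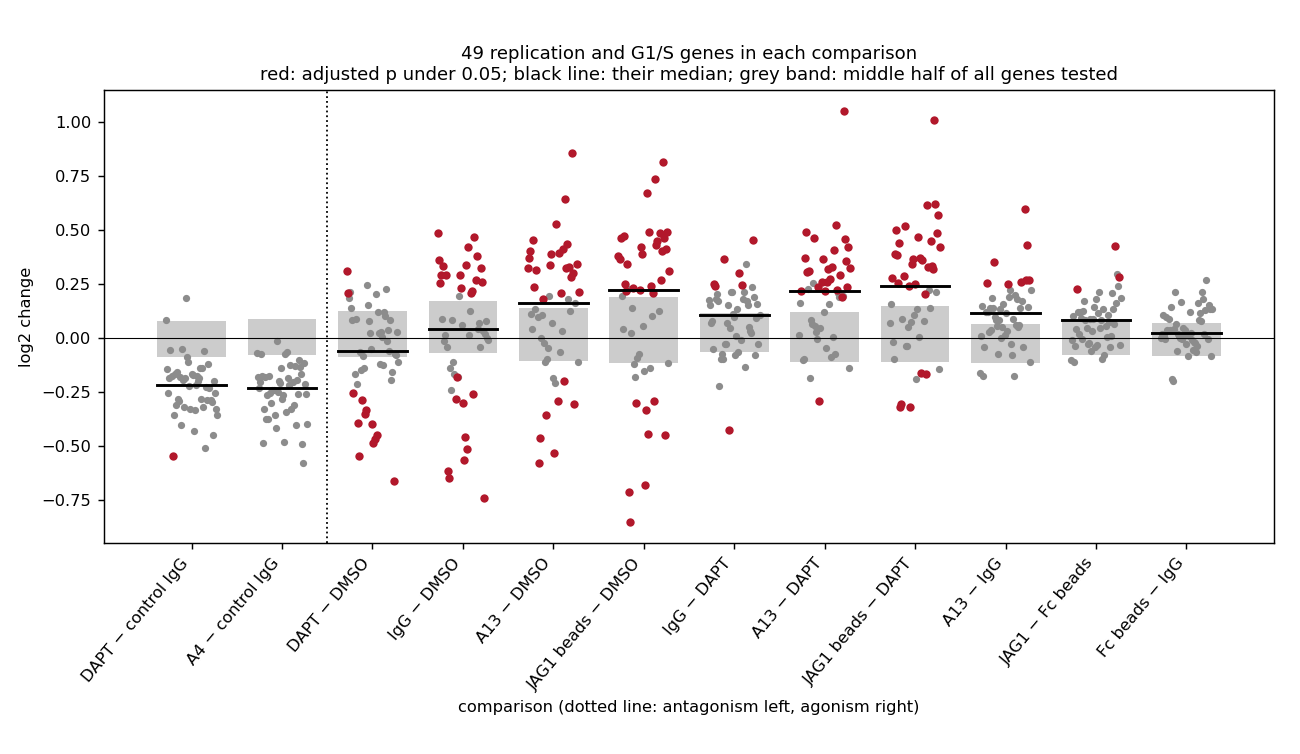
Log2 changes of the 49 genes (points, red where the adjusted p was under 0.05) in 12 comparisons, with their median (black line) and the range between the quartiles of all genes tested (grey band). Most points lie below the band's centre in both antagonism comparisons, above it with A13 or JAG1 beads over DAPT (medians 0.22 and 0.24), and on both sides of it against DMSO.

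In the comparisons against never-inhibited DMSO cells, some members were higher and others lower. With control IgG after washout, 17 members were higher than in DMSO and 10 lower (17.9% and 12.6% of all genes). With A13 the counts were 22 and 7 (15.7% and 15.2%), and with JAG1 beads 26 and 8 (23.1% and 16.9%). The share of members that were lower with A13 or JAG1 beads was thus near that of all genes. Centring each array on its median turned the IgG split to 13 higher and 14 lower, while 5598 of all genes passed, against 6049. These 3 comparisons and that of continued DAPT with DMSO share the 3 DMSO arrays, and the values of all 4 are set side by side only. Fc beads were not compared with DMSO.

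GINS1, GINS2, POLE2, RFC3, TIPIN and RAD51AP1 were lower in all 4. How many of all genes were lower in all 4 was not counted, and the shared DMSO arrays link the calls of a gene. In GINS2 the DMSO level of 11.55 ± 0.15 (mean ± SD, n = 3) stood against 11.00 ± 0.03 in DAPT, 10.90 ± 0.04 with IgG, 11.09 ± 0.08 with A13 and 10.70 ± 0.08 with JAG1 beads, the last a fall of 0.86 ± 0.07 (adjusted p = 2.84e-08). GINS1 measured 10.97, 10.83 and 10.89 with IgG, 10.81, 10.96 and 11.04 with A13 and 10.71, 10.81 and 10.89 with JAG1 beads. All lay below the lowest DMSO array, at 11.36. Its falls were 0.62 ± 0.08, 0.58 ± 0.08 and 0.71 ± 0.08. POLE2 fell by 0.57 ± 0.08, 0.54 ± 0.08 and 0.68 ± 0.08 in the same order. RAD51AP1 fell by 0.74 ± 0.11 with IgG and 0.45 ± 0.11 with JAG1 beads, and its fall with A13 (0.31 ± 0.11, adjusted p = 0.0419) was lost without any single array other than DMSO array 2. TIPIN fell by 0.52 ± 0.08 with IgG and 0.45 ± 0.08 with JAG1 beads, and RFC3 by 0.28 ± 0.06 and 0.30 ± 0.06.

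In the other direction, MCM2 and MCM3 were higher than in DMSO in all 4 comparisons, and 15 members were higher with IgG, with A13 and with JAG1 beads. These were MCM2, MCM3, MCM4, MCM7, CDT1, LIG1, POLA1, RRM1, UNG, CHAF1A, CHAF1B, E2F1, E2F2, CLSPN and UHRF1. Neither such repeated calls nor genes without any call were counted over all genes. Because the DMSO arrays are shared, repeated calls of a gene are not separate support. Of all calls against DMSO in either direction, 13 of 27 with IgG, 17 of 29 with A13 and 25 of 34 with JAG1 beads were kept in every alternative. With IgG, the call of POLA1 was lost in 7 of 14 alternatives, that of UNG in 6 of 13 and that of CDT1 in 5 of 13. MCM2 rose by 0.49 ± 0.09 with IgG, MCM3 by 0.36 ± 0.06 and UHRF1 by 0.38 ± 0.11, and MCM7 rose by 0.33 ± 0.07 with IgG, 0.45 ± 0.07 with A13 and 0.47 ± 0.07 with JAG1 beads. The UHRF1 call was lost without DMSO array 1 or 3 or IgG array 2 or 3. CHAF1A was lower in DMSO than with IgG, A13 or JAG1 beads, at 7.98, 8.29 and 8.17, and rose by 0.47 ± 0.12 with IgG, 0.65 ± 0.12 with A13 and 0.74 ± 0.12 with JAG1 beads. CLSPN measured 7.33, 7.63 and 7.42 in DMSO and 8.05, 8.15 and 8.20 with JAG1 beads, a rise of 0.67 ± 0.08. RRM1 rose by 0.42 ± 0.06, 0.39 ± 0.06 and 0.49 ± 0.06. E2F2 rose by 0.26 ± 0.07 with IgG, a call lost without IgG array 2, but by 0.86 ± 0.07 with A13 and 0.82 ± 0.07 with JAG1 beads. E2F1, the better known activating factor, rose by 0.32 ± 0.08, 0.28 ± 0.08 and 0.40 ± 0.08, the call with A13 being lost without DMSO array 1 or A13 array 3. With JAG1 beads BLM (0.49 ± 0.06), ATAD2 (0.48 ± 0.08) and EXO1 (0.46 ± 0.08) were also among the largest rises. For 11 members no comparison with DMSO passed, namely MCM6, ORC1, GINS3, GINS4, PCNA, RFC2, RFC5, POLA2, RRM2, HELLS and WDR76. Without _s_at and _x_at probe sets only 40 members were measured, of which 17 passed with IgG and 19 with A13. All genes past the threshold fell as well, from 6049 to 4277 with IgG and from 6108 to 4418 with A13. In that setting GINS2 changed by 0.05 with JAG1 beads, and CHAF1A by -0.03 with IgG and A13. A dimmer probe set of CASP8AP2 (-0.36) and one of TYMS (-0.33) fell with JAG1 beads, opposite to the brightest.

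The promoters of 3 genes that rose over DAPT with both agonists (E2F2, CHAF1A and MCM10) and of 3 that fell in each comparison with DMSO (GINS1, GINS2 and POLE2) are given next, so that the E2F-like matches can be seen beside the direction of change. Each is the 250 bases before the RefSeq start site (build GRCh38.p14), read 5′ to 3′ on the gene's strand. Capitals mark a match to TTCCCGC, to TTCGCGC, to TTGGCGC or to TTGCCGC on either strand. The positions are chr1:23531234-23531483 on the minus strand for E2F2, chr19:4402390-4402639 on the plus strand for CHAF1A, chr10:13161308-13161557 on the plus strand for MCM10, chr20:25407423-25407672 on the plus strand for GINS1, chr16:85688955-85689204 on the minus strand for GINS2 and chr14:49688215-49688464 on the minus strand for POLE2.
E2F2: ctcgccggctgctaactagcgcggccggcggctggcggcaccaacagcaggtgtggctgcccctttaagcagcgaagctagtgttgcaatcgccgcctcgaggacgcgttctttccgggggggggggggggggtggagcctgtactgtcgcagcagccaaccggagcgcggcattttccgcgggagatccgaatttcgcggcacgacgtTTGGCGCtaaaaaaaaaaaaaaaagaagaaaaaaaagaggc
CHAF1A: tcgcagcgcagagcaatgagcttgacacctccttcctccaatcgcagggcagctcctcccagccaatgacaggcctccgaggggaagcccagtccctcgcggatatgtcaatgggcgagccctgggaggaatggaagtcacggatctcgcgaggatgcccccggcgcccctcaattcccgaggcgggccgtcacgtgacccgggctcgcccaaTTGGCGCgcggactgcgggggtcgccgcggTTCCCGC
MCM10: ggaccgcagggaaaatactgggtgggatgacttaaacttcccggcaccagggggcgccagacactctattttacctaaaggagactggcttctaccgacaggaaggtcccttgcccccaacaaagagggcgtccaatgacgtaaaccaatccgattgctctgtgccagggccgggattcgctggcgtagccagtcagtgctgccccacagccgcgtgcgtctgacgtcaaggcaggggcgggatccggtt
GINS1: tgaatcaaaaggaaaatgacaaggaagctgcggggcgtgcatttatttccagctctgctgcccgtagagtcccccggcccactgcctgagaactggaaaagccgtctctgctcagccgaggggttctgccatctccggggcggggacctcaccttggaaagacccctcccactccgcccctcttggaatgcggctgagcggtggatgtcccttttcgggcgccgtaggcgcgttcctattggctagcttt
GINS2: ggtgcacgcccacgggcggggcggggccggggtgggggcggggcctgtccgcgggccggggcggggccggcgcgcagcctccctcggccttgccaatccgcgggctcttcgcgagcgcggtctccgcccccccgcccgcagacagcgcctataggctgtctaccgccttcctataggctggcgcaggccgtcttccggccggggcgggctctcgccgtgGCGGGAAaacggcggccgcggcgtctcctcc
POLE2: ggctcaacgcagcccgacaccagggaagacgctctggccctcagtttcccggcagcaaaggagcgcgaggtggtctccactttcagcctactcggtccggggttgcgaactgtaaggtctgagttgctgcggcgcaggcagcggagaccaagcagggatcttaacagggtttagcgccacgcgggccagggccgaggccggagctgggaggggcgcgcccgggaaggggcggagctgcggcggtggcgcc

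E2F2 and GINS2 had 1 match each and CHAF1A had 2, while MCM10, GINS1 and POLE2 had none in this window. The letters did not sort these 6 genes into those picked as rising over DAPT and those picked as falling against DMSO. These are different comparisons, and MCM10 itself fell in DAPT against DMSO. RefSeq promoters were matched to 43 of the 49 genes. E2F-like letters were found in 25 of the 43 (58.1%), compared with 11% of 27305 promoters of the same length. The CCAAT box (CCAAT), bound by NF-Y, was found in 26 (60.5%; all promoters 33%), the E-box CACGTG, which MYC can bind, in 4 (9.3%; all 6.49%), the RBPJ-like letters GTGGGAA in 3 (6.98%; all 5.46%) and the CHR letters TTTGAA, known from mitotic genes, in 2 (4.65%; all 13.6%). Both strands were searched for each.

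With JAG1 beads over DAPT, 16 of the 25 genes with E2F-like letters rose and 1 fell, with a median of 0.25. Of the 18 without, 7 rose and 4 fell, with a median of 0.07. With A13 over DAPT the counts were 15 and 0 of 25 (median 0.24) and 7 and 1 of 18 (median 0.05). With control IgG over DMSO, 11 of 25 with the letters were higher and 5 lower (median 0.09). Of the 18 without, 4 were higher and 4 lower (median 0.01). With A4 in the antagonism experiment the medians were -0.21 and -0.22. These are descriptions, and a match is not a binding site.

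**Figure D5:**
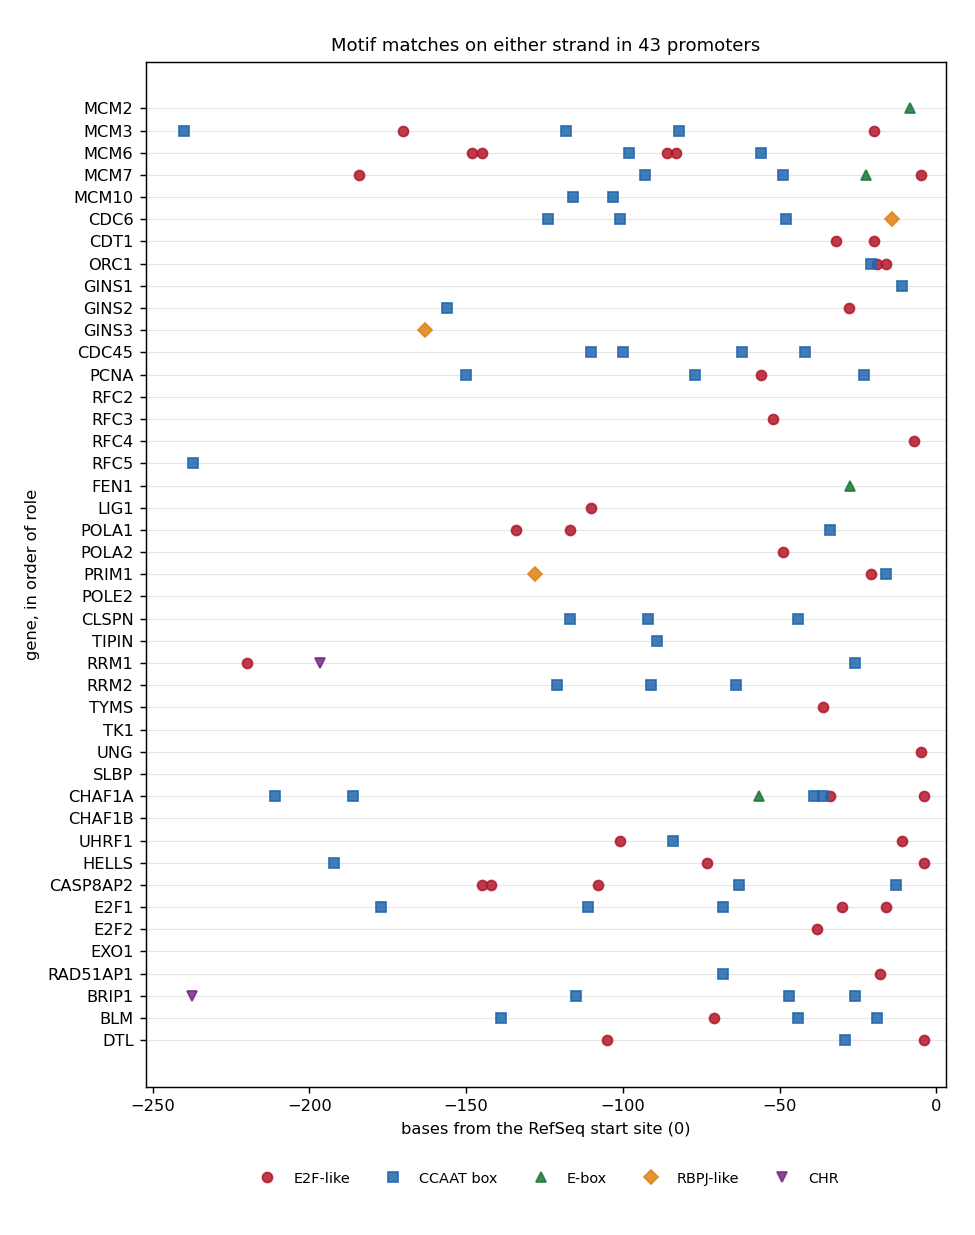
Matches to 5 short motifs on either strand in the 250 bases before the start site of 43 genes (vertical axis, in order of role); the horizontal axis gives bases from the RefSeq start site. E2F-like matches (circles) occur in 25 genes, CCAAT boxes (squares) in 26 and RBPJ-like letters (diamonds) in 3.

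Other genes of the cell cycle were counted in 3 further lists, of 39 other replication genes, 31 G1 to S regulators and 30 genes of G2 and mitosis. With DAPT against DMSO, where 8.31% of all genes fell and 12.4% rose, 16 of the other replication genes fell and 3 rose, led by ORC6 (-0.53 ± 0.09), the histone chaperone ASF1A (-0.45 ± 0.07) and DBF4, the activator of the origin-firing kinase (-0.40 ± 0.08). In G2 and mitosis 19 of 30 fell and 0 rose. The largest falls were those of the spindle gene HMMR (-0.43 ± 0.06), the survivin gene BIRC5 (-0.43 ± 0.05) and the mitotic kinase gene CDK1 (-0.41 ± 0.07). The G1 to S regulators had 9 falls and 3 rises. CDKN1A, the cyclin kinase inhibitor p21, rose by 0.80 ± 0.07, while CCND1, or cyclin D1, fell by 0.36 ± 0.08 and CDK6, its kinase, by 0.45 ± 0.08.

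With A13 over IgG, where 5.68% of all genes rose and 9.02% fell, 10 of the other replication genes rose and 1 fell, 8 G1 to S regulators rose and 2 fell, and 6 mitotic genes rose and 0 fell. CCND1 rose by 0.88 ± 0.08, CDK6 by 0.67 ± 0.08, the origin gene ORC6 by 0.52 ± 0.09 and TOP2A, the topoisomerase of dividing cells, by 0.38 ± 0.06. CDKN1A fell by 0.33 ± 0.07. JAG1 beads over Fc beads (2.97% of all genes rose and 5.14% fell) gave 5 rises and 1 fall among the other replication genes, 4 and 2 among the regulators, and 12 and 0 among the mitotic genes, with CCND1 at 0.32 ± 0.08, CDK6 at 0.39 ± 0.08 and CENPF, a kinetochore protein, at 0.38 ± 0.07. The CCND1 call there was lost without Fc array 3, JAG1 array 1 or JAG1 array 3. MYC rose by 1.45 ± 0.07 on release with IgG, by 2.79 ± 0.07 with A13 over DAPT and by 2.70 ± 0.07 with JAG1 beads over DAPT.

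The cyclin E genes are CCNE1 and CCNE2, whose products activate CDK2. CCNE2 fell against DMSO by 0.33 ± 0.09 in DAPT, where the arrays overlapped and the call was lost without DMSO array 1 or 3 or DAPT array 3, and by 0.63 ± 0.09 with IgG, 0.63 ± 0.09 with A13 and 0.92 ± 0.09 with JAG1 beads. CCNE1 changed by -0.04 ± 0.06 in DAPT against DMSO and 0.07 ± 0.06 with A13 over IgG, neither of which passed, and fell by 0.21 ± 0.06 with JAG1 beads over Fc beads (adjusted p = 0.0336), a call lost without Fc array 1 or 2 or JAG1 array 1 or 2. In the antagonism experiment 0 of 39, 1 of 31 and 0 of 30 genes of the 3 lists passed with DAPT, the 1 being LIN9, of the complex that couples E2F to mitotic genes (-0.54 ± 0.09, adjusted p = 0.0432), whose call was lost without any single array other than control 2. None passed with A4, where 20, 10 and 14 genes of the 3 lists were lower at an unadjusted p under 0.05 (4.85% of all genes). The medians of the 3 lists were -0.09, -0.125 and -0.18 with DAPT, against -0.22 for the 49 members.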

How the data were processed

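The deposited values were linear intensity per probe set, with RMA and R 2.10 named, with no role or order, in the submitters' processing notes. The sorted intensities were close within each experiment and differed between the experiments. They were converted to log2, where the design had assumed log2 values, and no pseudocount was added. Of 54675 probe sets, 41091 had 1 gene symbol, 1801 several and 11777 none in the platform annotation. The probe set with the highest mean log2 over the 26 arrays stood for each of 19775 genes. limma 3.58.1 in R 4.3.3 fitted all groups of an experiment together (lmFit, contrasts.fit and eBayes), and the difference between the DAPT effects was fitted over all 26 arrays. The Benjamini-Hochberg adjustment of p-values ran across every gene, and calls needed an adjusted p under 0.05. The number of arrays limits the precision. No arrays held identical values. The script was tested on simulated data. Figures used matplotlib 3.10.9.

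The members and gene lists were chosen with earlier results of these data known. In each comparison the text names up to 8 largest rises and 8 largest falls among passing members, or the 4 members with the smallest p where fewer than 3 pass. It also names up to 3 largest passing genes of each further list. Of 11 set genes of Notch response and of entry into S phase, it gives values for MYC, CCND1, CCNE1, CCNE2, CDKN1A and RB1. Values of the others, NOTCH3, HES1, NRARP, OLFM4 and CDKN1B, are not given. Alternatives changed the normalization, the arrays in the fit, a filter on dim genes, the probe set, the variance model and the pseudocount, and left out each array. Promoters came from RefSeq (GRCh38.p14), and genes without an entry were not searched. A few genes of the further lists were not analysed here.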

Additional observations from a re-analysis of the deposited data

Results flagged for a closer look

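The change with DAPT differed between the antagonism and the agonism experiment for 5 genes, by limma's test of the difference over all 26 arrays. The difference, antagonism minus agonism on the log2 scale, was -0.737 for UHRF1, -0.54 for CLSPN, -0.4418 for MCM4, -0.3543 for MCM3 and -0.2972 for RRM1. MCM3 measured 12.24, 12.14 and 12.18 in the antagonism controls and 12.06, 12.06 and 12.01 with DAPT, whereas it measured 11.52, 11.60 and 11.46 in DMSO and 11.61, 11.76 and 11.82 with DAPT in the agonism experiment. CLSPN measured 8.91, 8.60 and 8.74 against 8.47, 8.44 and 8.35 in the first, and 7.33, 7.63 and 7.42 against 7.51, 7.73 and 7.75 in the second, where the groups overlapped. None of the 5 calls was kept in every alternative.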

How the results depend on the processing

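No paired analysis was possible because the labels carry no replicate numbers. With DAPT in the antagonism experiment, 2 members passed after median centring, 3 after quantile normalization, 0 with only the groups compared, 10 among genes above the median level, 4 from the mean of a gene's probe sets, 10 with a trended robust variance and 2 with a pseudocount of 16, against 1 as reported. In the same order, 109, 192, 18, 270, 88, 306 and 84 of all genes passed, against 70. With A4 the count was 5 above the median level and 8 with the trended robust variance, against 0. Over all genes, 107 and 144 then passed with A4, against 20. Quantile normalization gave 16 for IgG over DAPT (reported 7), 14 for A13 over IgG (8), 5 for JAG1 over Fc beads (3) and 8 for the DAPT difference (5). In the same order, fits with only the groups compared gave 3, 5, 1 and 0, genes above the median level 15, 14, 6 and 14, and the trended robust variance 15, 13, 5 and 10. Over all genes, 1932, 2908, 1604 and 1211 passed in these comparisons as reported. The numbers were 2417, 3351, 2049 and 1683 after quantile normalization and 1141, 2421, 907 and 72 with only the groups compared. They were 2505, 3397, 2116 and 1993 above the median level and 2548, 3424, 2088 and 1840 with the trended robust variance. Fc beads over IgG had 1 call above the median level and 1 with the trended robust variance, where 849 and 761 of all genes passed (reported 411). Without _s_at and _x_at probe sets, 17 members passed for IgG over DMSO (27), 5 for A13 over IgG, 17 for A13 over DAPT (26) and 19 for A13 over DMSO (29). Only 40 members were measured in that setting. In the same order, 4277, 1862, 3860 and 4418 of all genes passed (reported 6049, 2908, 5586 and 6108).

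Signs turned for some genes without those probe sets: DSCC1 to 0.014 for DAPT, 0.0284 for JAG1 over DMSO, -0.0045 for A13 over IgG and -0.0296 for A13 over DAPT, and GINS2 to 0.0052 for DAPT, 0.0808 for IgG, 0.101 for A13 and 0.052 for JAG1 over DMSO and 0.0468 for JAG1 over DAPT. CHAF1A turned to -0.0288 for IgG and -0.0338 for A13 over DMSO, SMC3 to -0.22 for IgG over DAPT, and CASP8AP2 to -0.0486 and -0.36 for JAG1 over DAPT and DMSO. With the mean of all probe sets, RFC5 turned to 0.0121 for A13 over DAPT, NASP to -0.0843 for IgG over DAPT and CASP8AP2 to -0.04335 for JAG1 over DMSO. The cause was not tested.

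Leaving out 1 array gave 0 to 19 members with DAPT and 0 to 2 with A4 in the antagonism experiment, 11 to 17 for DAPT over DMSO, 4 to 9 for IgG over DAPT, 3 to 7 for A13 over IgG, 2 to 4 for JAG1 over Fc beads and 1 to 16 for the DAPT difference. The number of all genes passing moved too, for example from 11 to 1198 with DAPT and from 0 to 96 with A4 in the antagonism experiment, and from 326 to 2828 for the DAPT difference. Groups of 2 or 3 arrays, with 5 residual degrees of freedom in the antagonism experiment, limit what these tests can call.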
